A study of Mus musculus with 24 samples.

Results

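Integrin and laminin genes encode the receptors by which mouse cells hold on to the matrix around them and the chains from which much of the matrix beneath an epithelium is built. Genes were taken where the symbol in the array annotation was Itga or Itgb, or Lama, Lamb or Lamc, followed by a number, by 2b or by 1 of the letters l, m, x, v, e and d, and where at least 1 probe set carried that symbol alone. The rule itself uses symbols and no measured value, but it was chosen with earlier results of these data known. It gave 34 of the 18194 genes that have such a probe set, through 73 of 34958 probe sets. They are 16 integrin alpha subunits, 8 integrin beta subunits and 10 laminin chains.

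RNA was measured on Affymetrix arrays in 24 samples of C57BL/6 mouse cells, which form 12 groups of 2. Unamplified arrays, labelled by the manufacturer's one-cycle method, held 6 groups: embryonic stem cells (ESCs) grown free of feeders in LIF, a cytokine, with 2i, a pair of kinase inhibitors that keeps them in the naive state; epiblast-like cells (EpiLCs) at days 1, 2 and 3 of their induction from those ESCs; epiblast stem cells (EpiSCs), a culture derived from epiblast taken at embryonic day 5.75; and cells made to resemble primordial germ cells (PGCLCs), induced from day 2 EpiLCs. Amplified arrays held 6 groups whose cDNA was made from 5 ng of total RNA, the content of about 500 cells, and amplified over 22 cycles: ESCs, day 2 EpiLCs, EpiSCs, PGCLCs, and from the embryo the epiblast, which the design text places at embryonic day 5.5 to 6.0, and primordial germ cells (PGCs) taken at embryonic day 9.5. How PGCLCs and PGCs were isolated, the day at which PGCLCs were taken, whether EpiSCs grew on feeders, and whether the 2 samples of a group came from separate cultures or litters is not given in these sources. The sample titles call the 2 samples of a group biological replicates and do not say what was repeated. The p-values rest on the spread between these samples, and how far it covers separate cultures or litters is not known. The design text pairs PGCLCs with PGCs of this age on fluorescent reporter transgenes and epigenetic state, and the sources used here do not name the reporters.

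An integrin is a pair of an alpha and a beta subunit, and the pair decides which matrix protein it binds. Itgb1 joins most of the alpha subunits, among them the laminin receptors Itga3, Itga6 and Itga7 and the collagen receptors Itga1 and Itga2, while Itgav joins Itgb3, Itgb5, Itgb6 or Itgb8 to bind proteins such as vitronectin and fibronectin. A laminin is a trimer of an alpha, a beta and a gamma chain that polymerises into the basement membrane, the sheet on which the epiblast rests. Mouse embryos that lack Itgb1 or Lamc1 die around implantation, and migrating PGCs need Itgb1 to reach the gonad. Itgb3 is used as a surface marker to sort PGCLCs and was put forward in work on such cells, so its level in PGCLCs here is not independent evidence for that use.

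Promoter windows in the RefSeq promoter table (GRCm38.p6) were found for 22 of the 34 genes, and 4 of these are shown because they go with results below: Itga1 and Itga3 were called in opposite directions at the germ cell step, and Itga8 and Itgb8 were above the filter level in EpiSCs and not in ESCs or EpiLCs. The table held no window for Itgb3 or Lama1. Each is the 250 bases before an annotated transcript start, for Itga3 and Itga8 a start inside the span of the gene, all on the minus strand, written 5′ to 3′ with CpG dinucleotides, the sites of DNA methylation in mammals, in capitals. The windows lie at chr13:115101965-115102214 for Itga1, chr11:95076715-95076964 for Itga3, chr2:12301945-12302194 for Itga8 and chr12:119238277-119238526 for Itgb8.
Itga1: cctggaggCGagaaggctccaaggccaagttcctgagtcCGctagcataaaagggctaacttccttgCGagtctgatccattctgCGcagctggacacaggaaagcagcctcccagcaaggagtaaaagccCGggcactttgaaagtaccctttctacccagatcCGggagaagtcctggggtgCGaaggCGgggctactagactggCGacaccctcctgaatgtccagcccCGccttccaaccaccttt
Itga3: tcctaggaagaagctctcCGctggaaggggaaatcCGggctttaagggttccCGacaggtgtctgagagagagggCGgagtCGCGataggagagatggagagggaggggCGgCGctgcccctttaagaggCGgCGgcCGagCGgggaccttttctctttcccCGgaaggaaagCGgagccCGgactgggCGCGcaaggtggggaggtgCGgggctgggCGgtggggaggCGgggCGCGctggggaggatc
Itga8: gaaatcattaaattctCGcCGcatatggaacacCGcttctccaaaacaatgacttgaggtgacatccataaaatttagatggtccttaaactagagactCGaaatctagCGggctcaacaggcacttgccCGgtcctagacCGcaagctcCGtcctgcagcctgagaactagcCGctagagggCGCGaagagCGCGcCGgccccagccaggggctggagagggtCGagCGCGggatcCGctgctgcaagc
Itgb8: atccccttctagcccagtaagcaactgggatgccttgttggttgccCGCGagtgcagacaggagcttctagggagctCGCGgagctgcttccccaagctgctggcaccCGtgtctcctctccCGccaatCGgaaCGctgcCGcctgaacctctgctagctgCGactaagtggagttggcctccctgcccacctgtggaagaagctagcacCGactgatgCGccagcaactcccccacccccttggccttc
The window of Itga3 held 22 CpGs, that of Itga8 18, that of Itgb8 12 and that of Itga1 10, against a median of 10.5 over the 22 windows and 6 over all 27025 genes with a window. The GC box GGGCGG, the core of a binding site for Sp-family factors, was searched on both strands and stood 3 times in the Itga3 window and not in those of Itga1, Itga8 or Itgb8. It was found in 8 of the 22 windows (36.4%) and in 33.0% of all. The TATA box TATAAA was in 0 of the 22 and 3507 of the 27025, and the octamer ATGCAAAT, bound by Oct4 and its relatives, in 0 of the 22 and 1.62% of all. A match or its absence describes these letters in this window and says nothing of whether a factor binds.

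Values are the deposited intensities, linear and 1 per probe set and array, with the probe set of highest mean log2 intensity standing for a gene with several. A gene was tested where at least 2 arrays of a set rose above the 40th percentile of that set, here called the filter level, 28.1 on unamplified and 24.04 on amplified arrays. A difference was called where the limma fit gave an adjusted p under 0.05 and a log2 difference of at least 1 in size. Differences are log2 ± SE with 2 arrays per group, and a fold is given as "at least" where the lower group lay under the filter level. The median of an array lay between 41.1 and 49.2 in the unamplified set and between 36.2 and 40.03 in the amplified set. Over the genes tested in a set, the 2 arrays of a group correlated at 0.975 to 0.991 on unamplified arrays and at 0.957 to 0.972 on amplified ones, except the amplified EpiSC arrays at 0.911. The markers fitted the labels. On unamplified arrays 9 naive pluripotency genes summed to 26644 and 26782 in ESCs and to 2353 and 2514 in day 2 EpiLCs. There 7 genes of the postimplantation epiblast summed to 19325 and 18661 in day 2 EpiLCs and 2135 and 2186 in ESCs. A list of 8 germ cell genes summed to 23927 and 24429 in PGCLCs, 7506 and 7354 in ESCs and 2051 and 2245 in day 2 EpiLCs. On amplified arrays these 8 summed to 24210 and 25941 in PGCLCs, 26543 and 31734 in PGCs and 3374 and 2869 in day 2 EpiLCs.

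Of the 34 genes, 28 passed the filter on both array sets and 6 on neither: Itga4, Itga10, Itgam, Itgax, Lama2 and Lamc3. Itgam and Itgax encode leukocyte subunits, Lama2 the alpha chain of muscle basement membrane. These 6 rose above the filter level in at most 1 array of a set and were not tested, which limits what the arrays measured and does not show that the genes were silent.

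**Figure D1:**
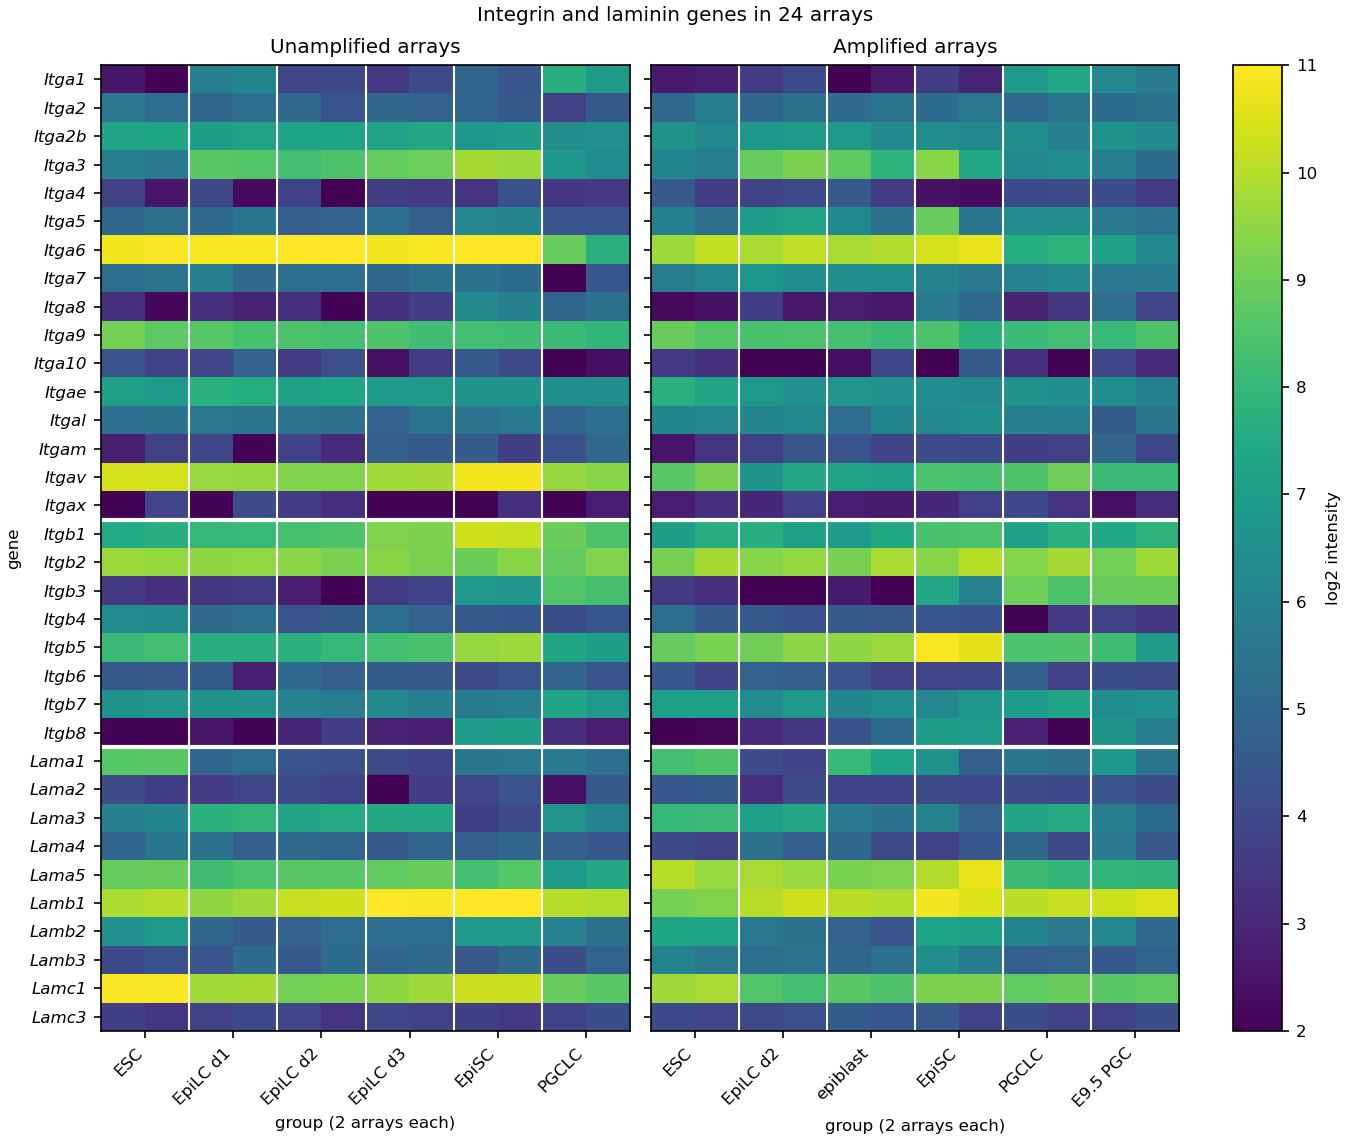
Log2 intensity (colour, clipped at 2 and 11) of the 34 genes, from Itga1 at the top to Lamc3 at the bottom, in 24 arrays, 2 per group, unamplified on the left and amplified on the right. Itga6 and Lamb1 are bright in every group except for Itga6 in PGCLCs and PGCs, and Itgb3 is bright only in EpiSCs, PGCLCs and PGCs.

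The first question is what becomes of adhesion genes as naive ESCs turn into EpiLCs, the cultured counterpart of the pregastrulation epiblast. Of the laminin chains Lama1 and Lamc1 fell and Lama3 rose on unamplified arrays, and of the laminin receptor subunits Itga3 rose. The laminin receptor subunit Itga6 and the alpha chain Lama5 (464 and 479.5 in ESCs and 407 and 408 in day 2 EpiLCs) were not called on either kind of array. On unamplified arrays 4 of 28 tested members were higher and 5 lower in day 2 EpiLCs than in ESCs, which is 9 of 28 where 8.96% of all genes were called higher and 7.50% lower; the median log2 difference of the 28 was -0.15 and that of all genes 0.01. On amplified arrays 1 was higher and 4 lower, where 4.27% of all genes were called higher and 4.24% lower. Itga3, Lama1, Lamb2, Lamc1 and Itgav passed in both sets, and Itgb3 passed on amplified arrays with the replicate block (-1.29, adjusted p = 0.0328) with all 4 values under the filter level.

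Lama1 encodes the laminin alpha chain of the earliest embryonic basement membranes. Its intensity was 393 and 404 in the 2 unamplified ESC arrays, 30.2 and 37.3 at day 1 of EpiLC induction, 20.3 and 18.2 at day 2 and 16.7 and 14.2 at day 3. Both ESC arrays stood far above all 6 EpiLC arrays, and the drop had taken place by day 1, where the log2 difference was -3.57 ± 0.22, adjusted p = 4.04e-07. At day 2 it was -4.37 ± 0.22 (at least 14.2-fold lower, adjusted p = 5.18e-08). The amplified arrays gave 318 and 364 in ESCs and 17.3 and 14.6 in day 2 EpiLCs, a difference of -4.42 ± 0.60, adjusted p = 0.00153. In bulk samples, fewer cells that express a gene and less RNA per cell cannot be told apart. A set of 7 parietal endoderm markers, cells that secrete Lama1, summed to 7067 and 6952 in ESCs and 2036 and 1995 in day 2 EpiLCs, of which Sparc made up 5467 and 5438 in ESCs; 4 of 7 were above the filter level in both ESC arrays, Thbd, Pth1r and Snai1 were below it in both, and their part in the result was not tested.

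Lamc1 encodes the gamma chain of most laminins. It read 1966 and 1979 in ESCs, 869 and 876 at day 1, 538 and 582 at day 2 and 714 and 841 at day 3, lowest at day 2 and above the filter level throughout. The day 2 difference from ESCs was -1.82 ± 0.09, adjusted p = 4.33e-08 on unamplified and -1.36 ± 0.21, adjusted p = 0.00333 on amplified arrays, where averaging all probe sets of the gene, in place of the one of highest mean, ended the call (adjusted p = 0.0592). Lamb2, a beta chain known from synaptic and kidney basement membranes, went from 92.8 and 120.5 in ESCs to 31.4 and 24.5 at day 1 and 28.9 and 36.98 at day 2, with no overlap between ESC and EpiLC arrays (-1.69 ± 0.25, adjusted p = 0.000196 at day 2). Its amplified difference was -1.74 ± 0.36 with an adjusted p of 0.0147, which rose to 0.0634 to 0.0961 when 1 of the 4 arrays was left out. Lamb1, the beta chain of the commonest embryonic laminins, read 958 and 1034 in ESCs and 1189 and 1289 at day 2 and was not called (0.31 ± 0.08, adjusted p = 0.0066). At day 3 Lamb1 read 2003 and 1993, a difference from day 2 of 0.69 ± 0.08 that stayed under the size threshold.

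Lama3 encodes an epithelial alpha chain that anchors skin to its basement membrane. Unamplified arrays gave 60.2 and 70.1 in ESCs, 213 and 236 at day 1, 155 and 186 at day 2 and 178 and 168 at day 3, so that all 6 EpiLC arrays lay above both ESC arrays. The difference at day 2 was 1.39 ± 0.22, adjusted p = 0.000375, a call that ended when the probe sets of the gene were averaged (0.71, adjusted p = 0.107). Amplified arrays gave 255 and 279.6 in ESCs and 136 and 168 in EpiLCs, with the ESC arrays on top (-0.82 ± 0.39, adjusted p = 0.273, not called). The test between the 2 kinds of array, the amplified difference minus the unamplified one, gave -2.21 ± 0.47, adjusted p = 0.0394, where 0.852% of all genes were called. It lost its call in 7 of 8 fits that left out 1 array, with adjusted p from 0.0929 to 0.18. Amplified arrays carried a ratio of 5′ to 3′ signal of the control gene Actb of 0.0503 to 0.206, against 0.792 to 0.874 on unamplified arrays, and the part of this in the result was not tested.

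Itga3 encodes a laminin receptor subunit that prefers the laminins built on Lama3 and Lama5. Its values were 57.9 and 54.00 in ESCs, 412 and 381 at day 1, 310.3 and 359.8 at day 2 and 464 and 522 at day 3. Every EpiLC array exceeded both ESC arrays, by 2.58 ± 0.14 at day 2 (5.98-fold higher, adjusted p = 1.02e-07). Amplified arrays gave 66.9 and 57.9 in ESCs and 464 and 596 in EpiLCs, again apart, with 3.08 ± 0.59, adjusted p = 0.00959. This second call was lost whichever of its 4 arrays was left out, with adjusted p from 0.0521 to 0.0755 and a difference still of 2.90 to 3.26. Itga6, another laminin receptor subunit, read 1811 and 1963 in ESCs and 2077 and 2120 in day 2 EpiLCs and was not called (0.15 ± 0.26, adjusted p = 0.683). Itgb4, the partner of Itga6 in the hemidesmosomes of skin, read 81.4 and 79.6 in ESCs and 19.8 and 25.5 at day 2, with no overlap (-1.84 ± 0.24, adjusted p = 8.07e-05, at least 2.86-fold lower). The amplified arrays, at 37.5 and 24.1 in ESCs and 23.6 and 19.2 in EpiLCs, gave no call (-0.49 ± 0.47, adjusted p = 0.639).

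Itgav, the promiscuous alpha subunit that binds vitronectin and fibronectin, fell from 1377 and 1384 in ESCs to 623 and 622 at day 2 (-1.15 ± 0.06, adjusted p = 1.18e-07). Its amplified arrays, 419.8 and 572 against 101 and 171, differed by -1.90 ± 0.31, adjusted p = 0.00415, and groups did not overlap in either set. Both calls ended when the 5 probe sets of the gene were averaged, and the adjusted p then reached 0.540 and 0.390. Of these 5, 1 was at or near the lowest value of the table in every group. Another, 1432296_a_at, moved the other way on amplified arrays, from 120 and 117 in ESCs to 196 and 185 in day 2 EpiLCs. On unamplified arrays its ESC and EpiLC values overlapped. Itgb1 stood at 183 and 205 in ESCs, 255 and 267 at day 1, 330.1 and 363 at day 2 and 608 and 600.3 at day 3, each pair above the one before. Its day 2 difference from ESCs was 0.84 ± 0.13, adjusted p = 0.000361, under the size threshold. On amplified arrays Itgb1 read 133 and 193 in ESCs and 199.6 and 140 in day 2 EpiLCs, with overlap and no call.

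Day 1 had its own profile in Itga1, a collagen receptor subunit. It read 5.77 and 1.67 in ESCs, 59.4 and 70.1 at day 1, 14.6 and 16.03 at day 2 and 11.2 and 16.9 at day 3, so only the day 1 pair stood above the filter level of 28.1. Day 1 exceeded ESCs by 3.71 ± 0.34 (adjusted p = 7.7e-06) and day 2 fell below day 1 by a log2 difference of -2.08 ± 0.34, adjusted p = 0.000803. Averaging probe sets ended the second call (-0.86, adjusted p = 0.0934). In all, 3 members were higher and 4 lower at day 1 than in ESCs (5.65% of all genes were called higher and 6.38% lower). There were 0 higher and 2 lower at day 2 than day 1 (5.26% of all genes were called higher and 2.78% lower), and 1 higher and 0 lower at day 3 than day 2 (1.48% of all genes were called higher and 2.78% lower). The second call between days 1 and 2 and the only one between days 2 and 3 were of Itgb3, whose arrays all lay below the filter level (11.1 and 12.01, then 6.59 and 3.71, then 11.8 and 13.9). Both of these were lost without the second day 2 array, where the differences became -0.81 and 0.96, and neither is a change in a measured level. Likewise Itga1 and Itgb8 were called higher in day 2 EpiLCs than in ESCs with every array of both groups under the filter level.

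**Figure D2:**
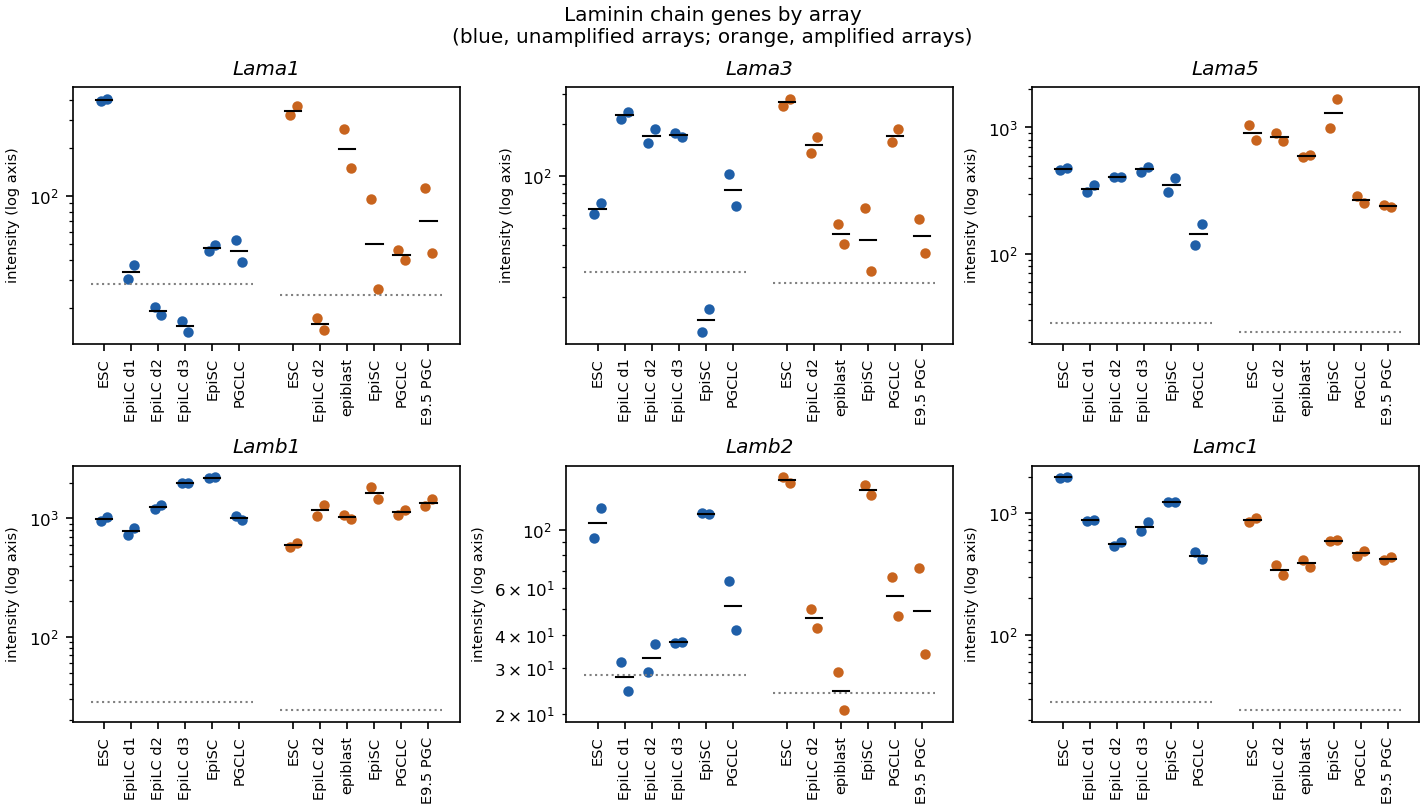
Intensity (log axis) of 6 laminin chain genes in each array, with unamplified arrays in blue and amplified arrays in orange. Points are single arrays, bars the means of log2 values and dotted lines the filter levels of 28.1 and 24.04; Lama1 drops from 393 and 404 in unamplified ESCs to 30.2 and 37.3 at day 1, and Lama3 is lowest in unamplified EpiSCs.

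EpiSCs come from the same tissue that EpiLCs model, and the comparison asks how the established line differs from the freshly induced cells. EpiSCs carried more integrin and laminin RNA of many kinds: Itgb3, Itgb8, Itga8, Itgb1, Itgb5 and Itgav were higher, together with Lamb2, while Lama3 was lower. On unamplified arrays 11 of 28 members were higher and 1 lower than in day 2 EpiLCs, where 12.4% of all genes were called higher and 6.45% lower; the median log2 difference was 0.14 over the 28 and 0.02 over all genes. This comparison shares its EpiLC arrays with that against ESCs above and with that of PGCLCs below. Amplified arrays gave 6 higher and 1 lower, where 8.61% of all genes were called higher and 3.86% lower. The 7 amplified calls were among the 12 unamplified ones. With the replicate numbers as a block, which the amplified arrays allow, Itgb1 (1.04, adjusted p = 0.0276) and Lama1 (1.67, adjusted p = 0.0253) passed there too.

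Itgb8 encodes the beta subunit that, with Itgav, frees TGF-beta from its latent form. It read 119 and 130.1 in the 2 unamplified EpiSC arrays and between 2.65 and 12.6 in the other 10 arrays of that set. EpiSCs exceeded day 2 EpiLCs by 3.65 ± 0.36 (at least 4.43-fold higher, adjusted p = 8.22e-06). Amplified EpiSCs read 133 and 119 and EpiLCs 8.36 and 10.7, with 3.73 ± 0.44 (at least 5.24-fold higher, adjusted p = 0.000578). Itga8, which pairs with Itgb1 to bind nephronectin, was at 76.1 and 60.9 in unamplified EpiSCs against 9.52 and 4.26 in day 2 EpiLCs (3.42 ± 0.47, at least 2.42-fold higher, adjusted p = 0.000104). The amplified pair, 52.4 and 34.4 against 12.6 and 5.98, gave 2.29 ± 0.55, adjusted p = 0.022, a call lost without the second EpiLC array (adjusted p = 0.140), without the first EpiSC array (0.0557) or with low values raised by a floor at the 40th percentile of all values (0.0916).

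Itgb3 stood at 114 and 106 in unamplified EpiSCs, where ESCs and EpiLCs had no array above 13.9. The difference from day 2 EpiLCs was 4.39 ± 0.27 (at least 3.92-fold higher, adjusted p = 2.64e-07). On amplified arrays EpiSCs read 164 and 63.7, further apart than the unamplified pair but both above every ESC, EpiLC and epiblast array (4.60 ± 0.43, adjusted p = 0.000144). Itgb1, at 1299 and 1222, was 3.64-fold higher than in day 2 EpiLCs (1.86 ± 0.13, adjusted p = 7.83e-07). Itgb5, a vitronectin receptor subunit, at 759 and 820.1, was 3.38-fold higher (1.76 ± 0.12, adjusted p = 6.34e-07). Itgav, at 1776 and 1821, was 2.89-fold higher (1.53 ± 0.06, adjusted p = 1.51e-08), a call that ended when its probe sets were averaged (0.11, adjusted p = 0.741). The amplified Itgav call (1.38 ± 0.31, adjusted p = 0.0159) ended on averaging too (adjusted p = 0.931), and without the first EpiLC array (difference 1.01). Its probe set 1432296_a_at went the other way there, at 117 and 56.2 in EpiSCs against 196 and 185 in EpiLCs.

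Itga3 reached 892 and 831 in unamplified EpiSCs, 2.58-fold higher than in day 2 EpiLCs (1.37 ± 0.14, adjusted p = 1.14e-05), or 0.88 and under the size threshold with its probe sets averaged. Its amplified EpiSC arrays read 683 and 163, on both sides of the EpiLC arrays at 464 and 596, and no call was made (-0.66 ± 0.59, adjusted p = 0.502). Itga5, the fibronectin receptor subunit, read 72.2 and 66.9 against 26.6 and 30.9 on unamplified arrays (1.28 ± 0.25, adjusted p = 0.00145) and 477 and 45.6 against 131 and 152 on amplified ones, where the EpiSC arrays lay on both sides of the EpiLC arrays (0.06 ± 0.84, adjusted p = 0.976). Another Itga5 probe set, 1423268_at, did not rise, at 15.7 and 26.4 in unamplified EpiSCs and 26.4 and 27.7 in EpiLCs, all under the filter level. With its probe sets averaged Itga5 did not pass the unamplified filter and was not tested. The 2 amplified EpiSC arrays are the pair with the lowest correlation of all groups. The test of whether the 2 kinds of array differed for EpiSCs against EpiLCs called 0 of 28 members in limma, where 0.295% of all genes were called; 5 members had an unadjusted p under 0.05, and 4 were called without the first amplified EpiSC array.

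Among laminins, Lamb2 at 116 and 114 was 3.52-fold higher than in day 2 EpiLCs (1.81 ± 0.25, adjusted p = 9.97e-05), and Lamc1 at 1230 and 1248 was 2.21-fold higher (1.15 ± 0.09, adjusted p = 1.34e-06, and 0.51, adjusted p = 0.0906, with probe sets averaged). Lama1, at 45.4 and 49.8, was again above the filter level and exceeded EpiLCs by 1.31 ± 0.22, adjusted p = 0.000412, still far below ESCs; with low values raised the difference was 0.87. Lama3 went down, from 155 and 186 in day 2 EpiLCs to 12.6 and 17.1 in EpiSCs, with no overlap (-3.54 ± 0.22, at least 6.06-fold lower, adjusted p = 3.16e-07). Its amplified values were 136 and 168 in EpiLCs and 65.2 and 28.4 in EpiSCs (-1.81 ± 0.39, adjusted p = 0.014), a call lost without either EpiLC array or the second EpiSC array (adjusted p 0.0514 to 0.0902) and under the size threshold with probe sets averaged (-0.94). Lamb2 on amplified arrays (1.61) and Itgb5 (1.52) also lost their calls when single arrays were left out, with adjusted p from 0.0513 to 0.0974 and from 0.0614 to 0.16, the Itgb5 call also with low values raised (0.0662).

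Markers of fibroblasts moved with EpiSCs. The 11 listed genes summed to 15662 and 15795 in unamplified EpiSCs, with all 11 above the filter level, and to 2299 and 2210 in day 2 EpiLCs, with 7 of 11 above it. On amplified arrays the sums were 7406 and 4411 in EpiSCs, again with all 11 above the level, and 617 and 586 in EpiLCs, with 6 above it. The 7 parietal endoderm genes summed to 5883 and 5875 in unamplified EpiSCs with all 7 above the level, and the 13 visceral endoderm genes to 1551 and 1501 against 513 and 580.4 in EpiLCs, with 8 and 7 above it. Postn was listed at 1.0 in both unamplified day 2 EpiLC arrays and at 449.6 and 416 in EpiSCs. Fibroblasts are known to express many of the same integrins, and the part of these cells in the EpiSC differences was not tested.

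**Figure D3:**
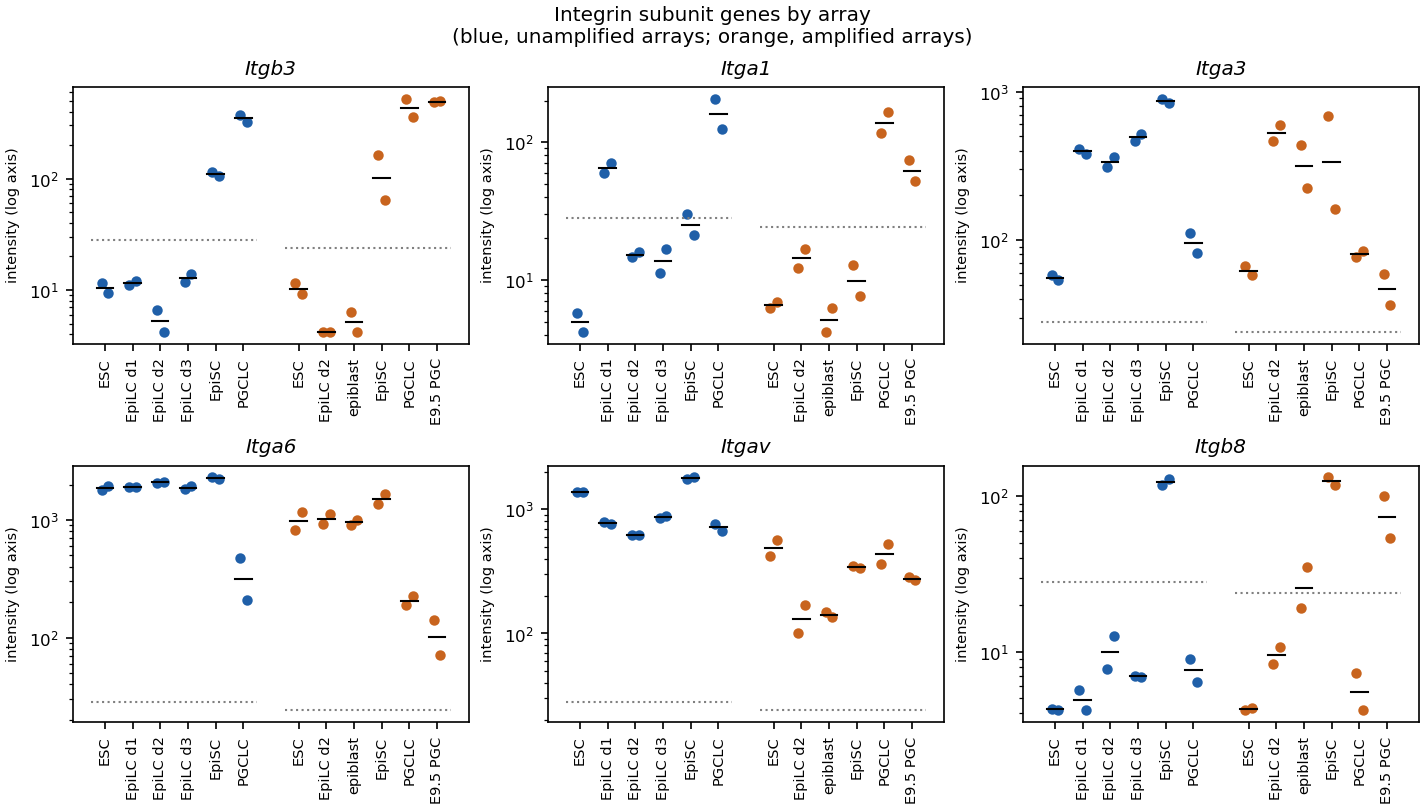
Intensity (log axis) of 6 integrin genes in each array, with unamplified arrays in blue and amplified arrays in orange. Points are single arrays, bars the means of log2 values and dotted lines the filter levels; Itgb3 is above its level in EpiSCs, PGCLCs and PGCs, Itga1 in day 1 EpiLCs, PGCLCs and PGCs and 1 EpiSC array, and Itga6 is lowest in PGCLCs and PGCs.

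The induction of PGCLCs from day 2 EpiLCs is the germ cell step in culture, at which 4 integrin subunits and 1 laminin chain were called on both kinds of array. Itgb3 and Itga1 rose, while the laminin receptor subunits Itga3 and Itga6 and the laminin chain Lama5 fell. On unamplified arrays 5 of 28 members were higher and 5 lower, 10 of 28 where 8.77% of all genes were called higher and 11.9% lower; the median log2 difference was -0.34 over the 28 and -0.09 over all genes. On amplified arrays 3 were higher and 4 lower, where 6.46% of all genes were called higher and 6.24% lower. 

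Itgb3 encodes the beta subunit that pairs with Itgav, or on platelets with Itga2b. Its intensity was 373 and 325 in unamplified PGCLCs and 6.59 and 3.71 in the day 2 EpiLCs they came from. On amplified arrays it was 519 and 355 in PGCLCs and 1.58 and 1.83 in EpiLCs. All 4 PGCLC arrays exceeded every EpiSC array, and the EpiLC arrays were at background. The difference was 6.05 ± 0.27 on unamplified arrays (at least 12.4-fold higher, adjusted p = 2.09e-08) and 6.68 ± 0.43 on amplified ones (at least 17.9-fold higher, adjusted p = 1.82e-05). The gene's other probe set, 1421511_at, read between 1.0 and 21.7 in all 24 arrays, so the result rests on probe set 1455257_at alone.

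Of the alpha subunits that join Itgb3, Itgav read 762 and 676 in unamplified PGCLCs against 623 and 622 in EpiLCs (0.21 ± 0.06, adjusted p = 0.018, not called) and 364 and 527 against 101 and 171 on amplified arrays, where it was called (1.73 ± 0.31, adjusted p = 0.0049). The amplified call ended without the second PGCLC array (difference 1.47) and when the 5 probe sets of the gene were averaged (0.02, adjusted p = 0.961). Among these, 1432296_a_at went the other way, at 141 and 88.4 in amplified PGCLCs against 196 and 185 in EpiLCs. The amplified minus unamplified difference was itself called at 1.53 ± 0.31, adjusted p = 0.029, where 0.845% of all genes were, and 6 of 8 fits that left out 1 array lost this call (adjusted p 0.06 to 0.141), as did averaging (0.41). Itga2b, the platelet partner, was lower in unamplified PGCLCs, 86.8 and 93.7 against 149 and 149.7, by a difference under the size threshold (-0.73 ± 0.13, adjusted p = 0.00072). Of the platelet markers, Pf4 was between 1.0 and 6.99 and Ppbp between 1.0 and 4.54 in the 4 PGCLC arrays, and the sum of 5 such genes was 103 and 141 in unamplified PGCLCs and 159 and 138 in EpiLCs.

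Itga1, the collagen receptor subunit, read 206 and 124 in unamplified PGCLCs and 14.6 and 16.03 in day 2 EpiLCs. Its amplified values were 117 and 164 in PGCLCs and 12.2 and 16.8 in EpiLCs. PGCLCs were above EpiLCs in all arrays, by 3.38 ± 0.34 (at least 5.68-fold higher, adjusted p = 7.84e-06) and 3.27 ± 0.40 (at least 5.75-fold higher, adjusted p = 0.000619). With the 2 probe sets of Itga1 averaged the amplified difference was 1.82 and no longer passed (adjusted p = 0.0573). Itga8 was called on unamplified arrays, at 29.9 and 39.9 against 9.52 and 4.26 (2.44 ± 0.47, at least 1.23-fold higher, adjusted p = 0.0011), a call that ended with low values raised (0.41) or probe sets averaged (0.61), while amplified PGCLCs read 7.19 and 11.1, below the filter level (0.04 ± 0.55, adjusted p = 0.982). Itgb7, which pairs with Itga4 or Itgae on lymphocytes, read 161 and 116 against 63.05 and 54.99 (1.22 ± 0.19, adjusted p = 0.000245). Without the first PGCLC array the Itgb7 difference was 0.98, and on amplified arrays it was 0.49 ± 0.29, adjusted p = 0.316.

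Itga6 fell in PGCLCs. Its values were 472 and 208 in unamplified PGCLCs and 2077 and 2120 in EpiLCs, and 189 and 225 against 918 and 1135 on amplified arrays. The PGCLC arrays lay below all ESC, EpiLC, EpiSC and epiblast arrays of their set, and the differences were -2.74 ± 0.26 (6.69-fold lower, adjusted p = 6.19e-06) and -2.31 ± 0.34 (4.95-fold lower, adjusted p = 0.00187). The second probe set of Itga6, 1422444_at, read 172 and 61.2 in unamplified PGCLCs and 635 and 715 in day 2 EpiLCs, and on amplified arrays it lay near background, which ended the amplified call when both were averaged (adjusted p = 0.0651).

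Itga3 fell from 310.3 and 359.8 to 111 and 82.4 on unamplified arrays and from 464 and 596 to 76.95 and 84.5 on amplified arrays, without overlap. The log2 differences were -1.80 ± 0.14, adjusted p = 1.17e-06 and -2.70 ± 0.59, adjusted p = 0.0137, the second lost whichever of its 4 arrays was left out (adjusted p 0.057 to 0.0847). Lama5, the alpha chain of most epithelial basement membranes, fell from 407 and 408 to 118 and 173 (-1.51 ± 0.17, adjusted p = 2.03e-05) and on amplified arrays from 896 and 781 to 287 and 251 (-1.64 ± 0.28, adjusted p = 0.00421). A second Lama5 probe set, 1427009_at, fell further, from 225 and 262 in unamplified day 2 EpiLCs to 3.37 and 19.3 in PGCLCs. Itgb4 was called lower on amplified arrays with all 4 values under the filter level, and the call was lost in 3 of 4 fits that left out 1 array (adjusted p 0.117 to 0.255).

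Itga7, Lama3 and Lama1 were also called on unamplified arrays alone. Itga7, a laminin receptor subunit of muscle, read 3.46 and 21.8 in PGCLCs and 38.3 and 39.1 in EpiLCs (-2.02 ± 0.59, adjusted p = 0.0129). Lama3 read 103 and 67.3 in PGCLCs against 155 and 186 (-1.03 ± 0.22, adjusted p = 0.00236), and Lama1 53.4 and 38.6 against 20.3 and 18.2 (1.24 ± 0.22, adjusted p = 0.000566). The Itga7 call was lost without the first PGCLC array (difference -0.83, adjusted p = 0.0545) or without either EpiLC array (0.0577 and 0.0599) and with low values raised (-0.58, adjusted p = 0.0558). The Lama3 call was lost without the second array of either group (differences -0.90 and -0.72), with probe sets averaged (-0.49), and with arrays centred or quantile normalized (-0.92 and -0.97). The Lama1 difference was 0.81 with low values raised. On amplified arrays the Lama1 difference of 1.43 ± 0.60 missed the threshold (adjusted p = 0.159) and passed it with the replicate block (0.0478).

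ESCs, the origin of the whole series of cultures, are a second point of reference, and this comparison shares its PGCLC arrays with the one above. It was tested on unamplified arrays alone. Against ESCs, 4 members were higher and 9 lower on unamplified arrays, where 9.40% of all genes were called higher and 11.2% lower; the median log2 difference was -0.59 over the 28 and -0.07 over all genes. Itgb3 and Itga1 were higher than in ESCs too, by 5.06 ± 0.27, adjusted p = 6.4e-08 and 5.02 ± 0.34, adjusted p = 3.43e-07. Lama1 in PGCLCs stood 8.78-fold lower than in ESCs (-3.13 ± 0.22, adjusted p = 4.52e-07), Lamc1 4.41-fold lower (-2.14 ± 0.09, adjusted p = 1.04e-08) and Itga6 6.01-fold lower (-2.59 ± 0.26, adjusted p = 9.47e-06). Itgb1 was higher, 503 and 359 against 183 and 205 (1.13 ± 0.13, adjusted p = 2.91e-05), and its difference was 0.89 without the first PGCLC array. The other 6 lower genes were Itga2, Itga7, Itgb4, Itgb5, Lama5 and Lamb2, from -1.03 for Itgb5 to -2.11 for Itga7, and Itga8 was the fourth higher one at 2.40. Itga2, a collagen receptor subunit, read 13.6 and 23.3 in PGCLCs and 47.96 and 37.4 in ESCs, and Itgb5 160.2 and 129 against 279 and 306. Leaving out 1 array ended the calls of Itga2 (adjusted p 0.0606 to 0.0648), Itga7 (difference -0.92 without the first PGCLC array), Itgb5 (-0.96 and -0.87) and Lamb2 (-0.85 and -0.73). Centring or quantile normalizing the arrays took Itgb5 and Lamb2 just under the size threshold (-0.98 and -0.96, -0.99 and -0.99), raised low values took Itga2 (-0.70), Itga7 (-0.66) and Itga8 (0.41) under it, and averaging did so for Itgb1 (0.43). On amplified arrays PGCLCs and ESCs overlapped in Itgb1 (143 and 216 against 133 and 193), Itga7 (63.7 and 75.5 against 56.5 and 71.9) and Itga2 (33.6 and 45.3 against 34.2 and 57.1). Itga8 lay under the filter level in both groups there. The other called genes, Itgb3, Itga1, Lama1, Lamc1, Itga6, Itgb4, Itgb5, Lama5 and Lamb2, stood apart there in the same direction.

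Endothelial markers, of cells that express several of these genes, summed over 10 genes to 1024 and 919 in unamplified PGCLCs and 912 and 896 in day 2 EpiLCs, and on amplified arrays to 2258 and 2185 in PGCLCs and 808 and 1414 in EpiLCs, with 8 and 6 of 10 above the filter level. Of the 9 tested on amplified arrays 6 were called higher and 0 lower in PGCLCs than in EpiLCs (median log2 difference 2.17, with 6.46% of all genes called higher), and of the 8 tested on unamplified arrays 3 higher and 0 lower than in EpiLCs (0.27, 8.77%) and 5 higher and 1 lower than in ESCs (1.81, 9.40%). Cdh5 lay below the filter level in all 4 PGCLC arrays, Tie1 below it on unamplified and at 106 and 109.9 on amplified PGCLC arrays, and Sox18 was listed at 1.0 on the amplified ones. Fibroblast markers also moved with PGCLCs. On unamplified arrays the 11 genes summed to 2987 and 3096 in PGCLCs and 1499 and 1495 in ESCs, beside the EpiLC sums given above, with 8 of 11 above the filter level in both PGCLC arrays and 1 below it in both. Of these 11, 6 were higher and 2 lower than in EpiLCs (median 1.10) and 7 higher and 0 lower than in ESCs (2.60), and on amplified arrays 3 were higher and 2 lower than in EpiLCs (0.45). The part of endothelial cells and fibroblasts in the PGCLC differences was not tested.

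In the embryo the same step is the change from epiblast to PGCs, which was measured on amplified arrays alone. PGCs differed from epiblast in the same direction as PGCLCs from EpiLCs for the 5 genes called in both: Itgb3 and Itga1 were higher and Itga3, Itga6 and Lama5 lower. In all, 2 of 28 members were higher and 4 lower, where 6.11% of all genes were called higher and 4.36% lower, and the median log2 difference was -0.03 over the 28 and 0.00 over all genes. With the replicate block the count was 10, the added genes being Itga8 (1.88, adjusted p = 0.0344), Itgb8 (1.51, 0.0445), Lama1 (-1.49, 0.0477) and Lamb2 (1.00, 0.0303). The share of all genes called with the block is not given beside this count.

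Itgb3 read 483 and 499 in PGCs and 6.33 and 1.0 in epiblast. Both PGC arrays lay within the range of the 2 amplified PGCLC arrays, and both epiblast arrays were at background. The difference was 6.57 ± 0.43 (at least 20.4-fold higher, adjusted p = 2.49e-05). Itga1 read 73.7 and 51.8 in PGCs and 1.23 and 6.26 in epiblast (3.59 ± 0.40, at least 2.57-fold higher, adjusted p = 0.000438), and with its probe sets averaged the difference of 1.63 did not pass (adjusted p = 0.0954). Itga6 read 142 and 71.05 in PGCs and 912 and 1003 in epiblast, with PGCs far below (-3.25 ± 0.34, 9.53-fold lower, adjusted p = 0.000312). Itga3 read 59.1 and 36.6 in PGCs against 438 and 224, again apart (-2.75 ± 0.59, adjusted p = 0.0148). Itgb5, which was not called at the step in culture, read 294 and 114 in PGCs and 709 and 795 in epiblast (-2.04 ± 0.39, adjusted p = 0.00885). Lama5 read 242 and 234 against 580 and 606 (-1.32 ± 0.28, adjusted p = 0.0151). The calls of Itga3 (adjusted p 0.109 to 0.123), Itgb5 (0.051 to 0.0693) and Lama5 (0.0682 to 0.102) were lost when single arrays were left out, for Itga3 the first epiblast or the second PGC array, for Itgb5 either epiblast array and for Lama5 any of the 4. Raised low values ended the Itga3 call too (0.0554).

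Blood and stroma markers moved with the PGC arrays. The 5 erythroid genes summed to 11009 and 3972 in PGCs and 163 and 173 in epiblast, almost all of it from Hba-x (8258 and 3346) and Hbb-bh1 (2683 and 582), with Hbb-y listed at 1.0. The 11 fibroblast genes summed to 2387 and 1062 in PGCs and 447 and 437 in epiblast, with 8 and 5 above the filter level and Thy1 below the filter level in both PGC arrays, and the 10 endothelial genes to 1189 and 908 and, in epiblast, 678 and 627, with Sox18 listed at 1.0. In each of these sums the first PGC array was the higher. Of the 6 members called, Itga1, Itga3, Itga6 and Itgb5 were also higher in the first PGC array. Lama5 (242 and 234) and Itgb3 (483 and 499) were nearly equal in the 2. How many of all genes were higher in the first array was not counted. The 5′ to 3′ ratio of Actb differed as well, at 0.0802 in the first PGC array and 0.206 in the second. The part of these cells or of this ratio in the PGC differences was not tested.

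Whether the step in culture and the step in the embryo differed was tested as the difference of the 2 differences. None of the 28 members was called, where 0.513% of all 15609 genes were; 4 members had an unadjusted p under 0.05. For Itgb3 this difference was 0.10 ± 0.61, adjusted p = 1, and for Itga1 -0.32 ± 0.56, adjusted p = 0.993. The 4 were Lama1 (2.92 ± 0.84, adjusted p = 0.225), Itgb8 (-2.29 ± 0.62, adjusted p = 0.195), Itga8 (-1.85 ± 0.77, adjusted p = 0.549) and Itgb5 (1.28 ± 0.55, adjusted p = 0.583). The standard errors of these log2 differences ran from 0.30 to 1.19 over the 28, so the 2 steps are not shown to be alike.

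**Figure D4:**
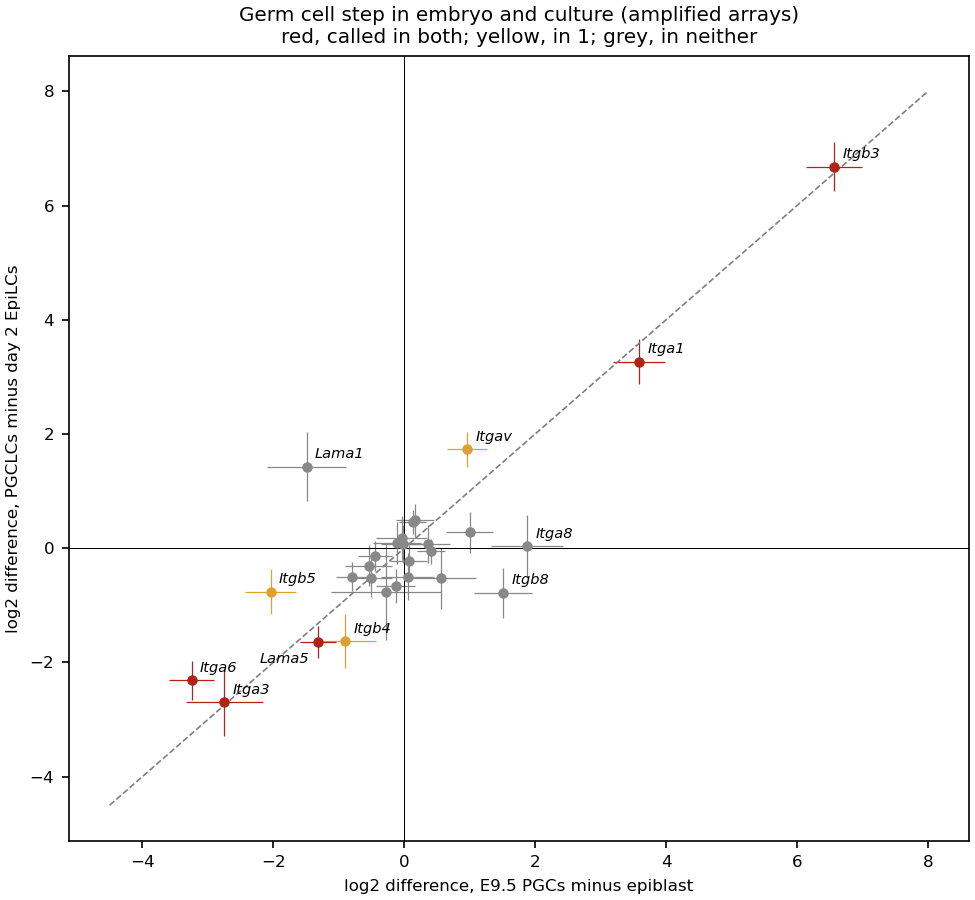
Log2 difference of each of 28 members between PGCs and epiblast (x axis) and between PGCLCs and day 2 EpiLCs (y axis), amplified arrays, with standard errors as bars and the line of equal change dashed. Itgb3 and Itga1 lie at the upper right and Itga3, Itga6 and Lama5 at the lower left, and Lama1, Itga8 and Itgb8 lie off the line without passing the test.

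A direct comparison of PGCLCs with PGCs gave 1 higher member and 1 lower, where 1.56% of all genes were called higher and 1.32% lower. Itgb8 read 7.29 and 1.39 in PGCLCs and 100.3 and 54.4 in PGCs, without overlap (-3.74 ± 0.44, at least 3.07-fold lower, adjusted p = 0.00282). Lama3 read 157 and 188 in PGCLCs and 56.7 and 35.95 in PGCs (1.92 ± 0.39, adjusted p = 0.0311), a call lost whichever array was left out (adjusted p 0.0659 to 0.211), and with low values raised (0.0804), no filter (0.0602) or probe sets averaged (0.0686). Itgb3 did not differ beyond its error (-0.19 ± 0.43, adjusted p = 0.985), and neither did Itga3 (0.79 ± 0.59, adjusted p = 0.796). Itga6 was 1.04 ± 0.34, adjusted p = 0.185 and Itga1 1.16 ± 0.40, adjusted p = 0.207 from PGCs, in both cases with the PGCLC arrays above the PGC arrays and without a call.

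EpiLCs stand for the epiblast, and among the members a single gene was called between them. Lama1 read 261 and 149 in epiblast and 17.3 and 14.6 in day 2 EpiLCs (-3.64 ± 0.60, at least 8.21-fold lower, adjusted p = 0.0221). That is 1 of 28 members, where 0.653% of all genes were called higher and 0.308% lower. The call was lost whichever array was left out (adjusted p 0.0933 to 0.176), although the difference stayed between -4.04 and -3.23, and it was lost with low values raised (0.147) or no filter (0.0595). With the replicate block Lama3 passed as well, higher in EpiLCs (1.70, adjusted p = 0.0492). In simulated data this comparison recovered 41.4% of changes of log2 1.5 and 77% of those of log2 3. The lack of other calls therefore does not show that EpiLCs and epiblast were alike. Markers of visceral endoderm, the tissue that wraps the epiblast and makes Lama1, moved with the Lama1 difference. The 13 listed genes summed to 3507 and 1313 in epiblast and 575 and 626 in EpiLCs, 12 of 13 were above the filter level in both epiblast arrays and none was below it in both, and Ttr read 558 and 71.4 against 20.1 and 20.5. The array with the higher sum was also the one with more Lama1, and the part of these cells in the result was not tested.

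Against the same epiblast arrays, ESCs had 4 members higher and 2 lower (6.64% of all genes were called higher and 5.18% lower) and EpiSCs 7 higher and 0 lower (8.97% of all genes were called higher and 2.71% lower), the latter with a median log2 difference of 0.64 over the 28 and 0.06 over all genes. In ESCs, Lamb2 (2.66 ± 0.36, adjusted p = 0.00116), Lama3 (2.53 ± 0.39, adjusted p = 0.00225), Itgav (1.79 ± 0.31, adjusted p = 0.00401) and Lamc1 (1.18 ± 0.21, adjusted p = 0.0051) were higher, and Itga3 (-2.33 ± 0.59, adjusted p = 0.0274) and Itgb8 (-2.60 ± 0.44, adjusted p = 0.0037) lower. In EpiSCs, Itgb3 (4.31 ± 0.43, adjusted p = 0.000225), Itga8 (2.75 ± 0.55, adjusted p = 0.00986), Lamb2 (2.53 ± 0.36, adjusted p = 0.0017) and Itgb8 (2.28 ± 0.44, adjusted p = 0.00864) were higher by over 2 on the log2 scale, and Itgav, Itgb1 and Lama5 by 1.13 to 1.28. Lama1 was lower in EpiSCs than in epiblast with the replicate block (-1.97, adjusted p = 0.0145) and not without it (0.061). Leaving out single arrays ended the calls of Itga3 (0.0501 to 0.197) and Lamc1 (0.0514 to 0.0606) in ESCs and of Itga8 (0.0563 to 0.0646), Itgb8 (0.0819), Itgav (0.0571 to 0.139), Itgb1 (0.0595 to 0.27) and Lama5 (0.088 to 0.154) in EpiSCs, the values being adjusted p. The Itgb8 difference between ESCs and epiblast rests on low values, 3.15 and 4.32 in ESCs and 19.1 and 35.1 in epiblast, and ended with low values raised (-0.22, adjusted p = 0.864). That setting also ended the calls of Itga3 in ESCs (0.0842) and of Itga8 (0.099) and Itgb1 (0.075) in EpiSCs. Averaging probe sets ended those of Itga3 (0.0713), Itgav (0.0923) and Lamc1 (0.123) in ESCs and of Itgav (0.436), Itgb1 (0.18) and Lama5 (0.391) in EpiSCs.

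Lama4, the alpha chain of vessel and nerve basement membranes, depended on its probe set. The set used for the gene, 1424808_at, read 13.5 to 52.2 over the 24 arrays and was called in none of the comparisons. The other, 1424807_at, read at most 11.6 in all ESC, EpiLC and epiblast arrays. It read 94.2 and 99.3 in unamplified EpiSCs, 105 and 92.0 in amplified EpiSCs, 89.9 and 55.5 in unamplified PGCLCs, 252 and 258 in amplified PGCLCs, and 29.5 and 14.3 in PGCs. EpiSC and PGCLC arrays thus stood apart from all ESC, EpiLC and epiblast arrays on this probe set. Tested on its own, as an alternative chosen after the values were seen, with adjustment over 26905 unamplified probe sets, it exceeded day 2 EpiLCs by 4.42 ± 0.48 in EpiSCs (adjusted p = 2.57e-05, 19.3% of probe sets called) and by 3.97 ± 0.48 in PGCLCs (adjusted p = 5.20e-05, 21.3% called). On amplified arrays PGCLCs exceeded EpiLCs by 5.72 ± 0.38 (adjusted p = 3.59e-05, 11.3% called) and PGCs by 3.63 ± 0.38 (adjusted p = 0.00255, 2.28% called). It also exceeded ESCs by 4.05 in unamplified PGCLCs (21.0% called) and epiblast by 4.55 in EpiSCs (10.1% called) and by 2.29 in PGCs (9.16% called). The step in culture exceeded the step in the embryo by 3.43 ± 0.54 (adjusted p = 0.0449, 0.262% called), the only probe set of a member for which this test passed. The endothelial marker sums given above, also higher in amplified PGCLCs than in EpiLCs or PGCs, belong beside this result. In unamplified PGCLCs the sums, 1024 and 919, lay near those of EpiLCs, 912 and 896. In EpiSCs, where this probe set was high too, they were lower than in EpiLCs. They read 495 and 504 there on unamplified arrays and 677 and 661 on amplified ones. The part of endothelial cells in the result was not tested.

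**Figure D5:**
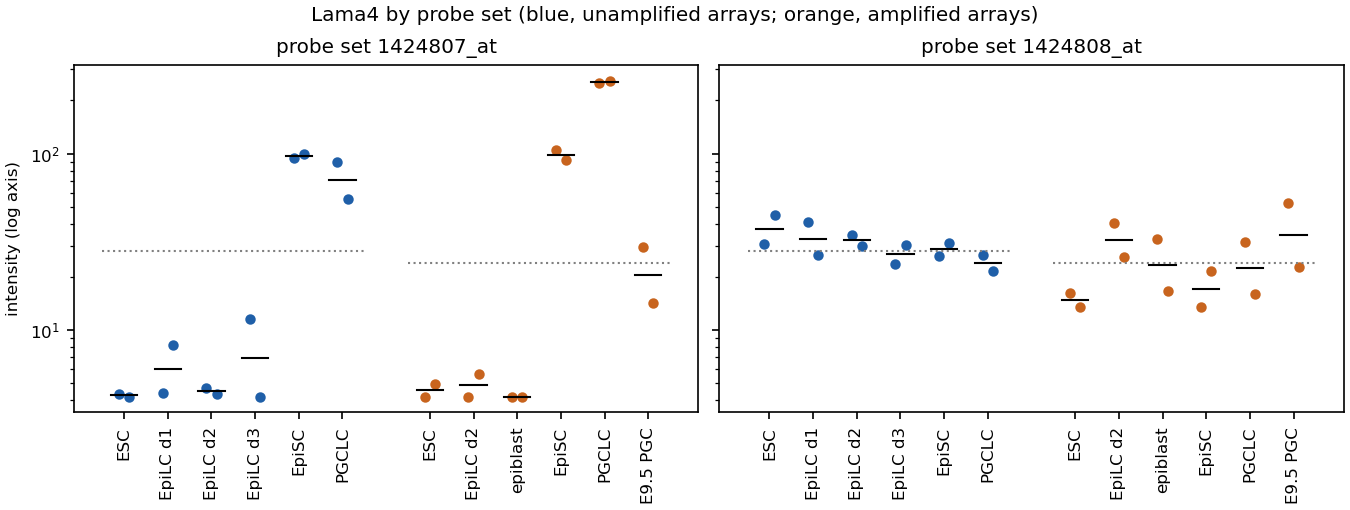
Intensity (log axis) of the 2 Lama4 probe sets in each array, unamplified in blue and amplified in orange, with bars at the means of log2 values and dotted lines at the filter levels. The set on the left is above its level in EpiSCs and PGCLCs and in 1 PGC array, while the set on the right varies between 13.5 and 52.2 with no group apart.

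Of the 28 tested members, 9 were called in no comparison by the probe set used for the gene. Itgb2, the beta subunit of the leukocyte integrins, read between 460.3 and 797 on unamplified arrays and between 543 and 1051 on amplified ones. Its leukocyte partners Itgam and Itgax did not pass the filter, and Itgal read 28.3 to 50.7 and 25.3 to 92.3. Of 8 leukocyte markers, Ptprc read at most 13.6 in unamplified ESCs and 9.0 in unamplified PGCLCs, whereas Laptm5 read 2061 and 2076 in ESCs and 30.7 and 26.1 in PGCLCs; the 8 summed to 2639 and 2630 in ESCs and 293 and 246 in PGCLCs. Itga9, a tenascin receptor subunit, and Itgae, the E-cadherin receptor subunit, were among the 9, as were Itga2b, Itgal, Itgb6, Lama4, Lamb1 and Lamb3. Itga9 read between 249.9 and 562 on unamplified arrays and between 222 and 483 on amplified ones, and Itgae between 88.4 and 214 and between 62.8 and 210.3. A second Lamb1 probe set, 1424113_at, was higher in amplified EpiLCs than in ESCs by 1.30 ± 0.27 (adjusted p = 0.0189, 7.11% of probe sets called).

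Other genes of cell adhesion were counted from 4 lists. Of 14 basement membrane partners of laminin, 11 were higher and 0 lower in unamplified EpiSCs than in day 2 EpiLCs, with a median log2 difference of 2.32 against 0.02 over all genes, and 8 and 0 on amplified arrays (1.94 against 0.03). Of all genes 12.4% were called higher in the first comparison and 8.61% in the second. Frem2, part of a complex beneath epithelia, rose from 5.79 and 4.30 to 579 and 589, and Tinagl1, a secreted glycoprotein of basement membranes, from 10.3 and 7.89 to 230.4 and 224 (4.66 ± 0.41, adjusted p = 3.94e-06). In PGCLCs 6 were higher and 0 lower than in EpiLCs on both array sets (medians 0.77 and 1.27), where 8.77% and 6.46% of all genes were called higher, and in PGCs 4 were higher and 0 lower than in epiblast, where 6.11% were. Npnt, nephronectin, the ligand of the integrin of Itga8 and Itgb1, read 406 and 573 in unamplified PGCLCs and 106 and 143 in EpiLCs (1.97 ± 0.19, adjusted p = 7.32e-06), 672 and 478 against 47.96 and 41.1 on amplified arrays (3.68 ± 0.37, adjusted p = 0.000221), and 832 and 615 in PGCs against 6.25 and 11.5 in epiblast (6.40 ± 0.37, at least 29.8-fold higher, adjusted p = 1.89e-05). At the step from ESCs to day 2 EpiLCs 3 were higher and 4 lower on unamplified arrays (8.96% and 7.50% of all genes), with the largest difference in nidogen, Nid1, which links laminin to collagen and read 2342 and 2167 in ESCs and 148 and 165 in EpiLCs (-3.85 ± 0.19, adjusted p = 5.64e-08).

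Of 13 other integrin ligands on the array, 11 were tested on unamplified arrays, and 7 were higher and 0 lower in EpiSCs than in EpiLCs (median 1.65; 12.4% of all genes were called higher). Vitronectin, Vtn, read 324 and 355 against 10.4 and 6.28, and thrombospondin, Thbs1, 625 and 725 against 29.2 and 33.8. Fibronectin, Fn1, fell from 4498 and 4868 in ESCs to 863 and 883 in day 2 EpiLCs (-2.42 ± 0.09, adjusted p = 7.78e-09) and stood at 2547 and 2152 in PGCLCs (1.42 ± 0.09, adjusted p = 3.04e-07 from EpiLCs). Mfge8, which binds the integrins of Itgav with Itgb3 or Itgb5, was 3.87-fold higher in PGCLCs (1.95 ± 0.08, adjusted p = 1.67e-08) and 13.2-fold higher in PGCs than in epiblast (3.72 ± 0.41, adjusted p = 0.000432). In PGCLCs 2 ligands were higher and 2 lower than in EpiLCs on unamplified arrays (median -0.19), where 8.77% of all genes were called higher and 11.9% lower.

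Of 9 laminin receptors outside the integrin family, 8 were tested on unamplified arrays, and 0 were higher and 3 lower in PGCLCs than in EpiLCs (median -0.25), again beside 8.77% and 11.9% of all genes. Bcam, which binds Lama5, fell from 119 and 82.8 to 15.4 and 19.1 (-2.53 ± 0.20, at least 3.53-fold lower, adjusted p = 1.15e-06), and the syndecan Sdc2 from 94.3 and 103 to 27.6 and 31.9 (-1.73 ± 0.12, adjusted p = 5.62e-07). On amplified arrays 1 was higher and 2 lower, where 6.46% of all genes were called higher and 6.24% lower. Of 22 adaptor genes that couple integrins to actin, 1 was higher and 3 lower in unamplified PGCLCs than in EpiLCs (median -0.10), shares of 22 that lie near the 8.77% and 11.9% of all genes. In EpiSCs 4 were higher and 1 lower (0.37), where 12.4% of all genes were called higher and 6.45% lower. Parva, part of the ILK complex, read 372 and 443 in EpiSCs and 6.31 and 7.98 in EpiLCs (5.84 ± 0.34, at least 14.5-fold higher, adjusted p = 1.9e-07). Fermt3, the kindlin of blood cells, read 33.2 and 32.3 in EpiSCs, 286 and 321 in EpiLCs and 406 and 463 in PGCLCs, and was 12.1-fold higher in PGCs than in epiblast (3.60 ± 0.38, adjusted p = 0.000329).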

How the data were processed

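Per the labels' protocols, RNA was isolated with a column kit and hybridised either after the manufacturer's one-cycle labelling or after amplification. The values are the deposited linear intensity values of 45101 probe sets on 24 arrays; the software and normalization that the authors used to make them stand in none of the sources used here. A probe set was named where its annotation gave 1 symbol; 932 gave several and 9211 were not listed. Of the named ones, 34754 gene IDs matched the RefSeq table (GRCm38.p6) and 204 did not. Values under the 10th percentile, 4.20, were raised to it, genes above the 40th percentile of a set (28.1 unamplified, 24.04 amplified) on at least 2 arrays were kept, and log2 values were taken.

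The 2 array sets were fitted apart with limma 3.58.1 in R 4.3.3, 1 mean per group over 12 arrays with 6 residual degrees of freedom and an intensity trend, with p-values adjusted by Benjamini and Hochberg over 14935 unamplified or 15609 amplified genes. Differences between kinds of array used all 24 arrays and 14554 genes. The scripts were tested on simulated data. Arrays limit precision by their number, 2 per group. Same-numbered amplified arrays deviated together in all 15 pairs of groups (correlation 0.11 to 0.61), so that numbers pair these arrays by this check of the data, and blocked values stand beside results they change; on unamplified arrays 3 of 15 pairs did (-0.10 to 0.19).

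Every member is accounted for: array values are given for Itgb3 and for members called in at least 1 comparison, the others by range or count, and from the other lists at most 4 called genes per comparison by size of difference. The members and lists were chosen with earlier results of these data known. Alternatives were another floor, no filter, averaged probe sets, median centring, quantile normalization, no trend, the replicate block, leaving out each array or both amplified EpiSC arrays, and, chosen after seeing the data, each probe set alone. No column was left unmapped.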

Additional observations from a re-analysis of the deposited data

Results flagged for a closer look

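Member values came out differently on the 2 kinds of array in 2 tests. For Lama3 the difference between day 2 EpiLCs and ESCs was 1.39 ± 0.22 on unamplified and -0.82 ± 0.39 on amplified arrays, and the tested difference between these was -2.21 ± 0.47, adjusted p = 0.0394. For Itgav the difference between PGCLCs and day 2 EpiLCs was 0.21 ± 0.06 on unamplified and 1.73 ± 0.31 on amplified arrays, and the tested difference was 1.53 ± 0.31, adjusted p = 0.029. Both calls were lost in most of the fits that left out 1 array, as given above.

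Probe sets not used for their gene carried calls where the gene itself had none. The Lama4 probe set 1424807_at was higher in EpiSCs than in day 2 EpiLCs by 4.42 on unamplified and 4.34 on amplified arrays, and higher than in epiblast by 4.55. In PGCLCs it exceeded EpiLCs by 3.97 and 5.72 on the 2 kinds of array, ESCs by 4.05 on unamplified arrays and PGCs by 3.63, and in PGCs it exceeded epiblast by 2.29. The Itgal probe set 1435560_at was lower in EpiSCs than in EpiLCs by -1.78 and -1.08, with all unamplified values of both groups under the filter level and amplified values of 19.9 and 21.6 against 8.08 and 11.9, under it too. It was lower in amplified EpiLCs than in ESCs by -1.59, where ESCs read 62.1 and 62.7, and higher in ESCs than in epiblast by 1.65. Itgal encodes the alpha subunit of a leukocyte integrin, and the probe set used for the gene was called in none of these comparisons.

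In unamplified PGCLCs the Itga5 probe set 1423268_at stood lower than in EpiLCs by -1.71 with all values under the filter level, and the Itgav probe set 1432296_a_at lower than in EpiLCs by -2.94 and than in ESCs by -2.70. That Itgav probe set read 1.0 and 18.0 in PGCLCs against 56.9 and 78.4 in EpiLCs, while amplified PGCLCs read 141 and 88.4. The Lamb1 probe set 1424113_at was higher in amplified EpiLCs than in ESCs by 1.30 and lower in ESCs than in epiblast by -1.04, in both cases with the probe set used for Lamb1 not called. These probe set tests were chosen after the data were seen, on 26905 unamplified or 26757 amplified probe sets, of which 19.3% to 21.3% were called in the unamplified comparisons between cell types named here and 2.28% to 11.3% in the amplified ones. All differences are log2.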

How the results depend on the processing

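Of 97 called member differences, 44 kept their call under every alternative in which the gene was tested and 53 lost it under at least 1. A gene that failed the filter under an alternative was not counted as a loss. With probe sets averaged this was so for Itga5 in unamplified EpiSCs against EpiLCs, which is among the 44. It was also so for Itga8 in amplified EpiSCs against EpiLCs and epiblast. Over 1099 alternative values 162 lost the call and 0 turned direction. The counts that follow are of members alone, without the share of all genes called under the same alternative. They do not show whether members moved more than other genes. The count of called members was 2 between day 1 and day 2 EpiLCs and 1 between days 2 and 3; with a floor at the 40th percentile it was 1, of Itga1, and 0. With probe sets averaged it was 1 and 0, the 1 being Itgb8 (1.02, adjusted p = 0.0319) with all values under the filter level, and neither Itga1 nor Itgb3 was called. Averaging probe sets also gave 3 in place of 5 for amplified EpiLCs against ESCs, 4 in place of 7 for EpiSCs against epiblast, 1 in place of 2 for PGCLCs against PGCs, and 0 in place of 1 for both tests between kinds of array, of EpiLCs against ESCs and of PGCLCs against EpiLCs. For EpiLCs against epiblast the count of 1 was 0 with raised low values or no filter, 2 with the replicate block and 2 without both EpiSC arrays. With no filter PGCLCs against PGCs gave 1. The replicate block gave 10 in place of 6 for PGCs against epiblast and, apart from the 2 just given for EpiLCs against epiblast, changed no count by more than 1.5 times. Raised low values gave 2 for the test between kinds of array of EpiLCs against ESCs, and each probe set on its own gave 1 in place of 0 for the germ cell step in culture against the embryo.

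Leaving out each array in turn gave counts, on unamplified arrays, of 8 to 10 for day 2 and 7 to 8 for day 1 EpiLCs against ESCs, 1 to 3 between days 1 and 2, 0 to 1 between days 2 and 3, 12 throughout for EpiSCs, 8 to 9 for PGCLCs against EpiLCs and 11 to 12 for PGCLCs against ESCs. On amplified arrays it gave 3 throughout for EpiLCs against ESCs, 3 to 8 for EpiSCs and 5 throughout for PGCLCs against EpiLCs. Against epiblast it gave 0 throughout for EpiLCs, 4 to 5 for ESCs, 2 to 7 for EpiSCs and 3 to 6 for PGCs, and 1 to 2 for PGCLCs against PGCs. The germ cell step in culture against the embryo stayed at 0, and the tests between kinds of array gave 0 to 1 for EpiLCs against ESCs, 0 to 4 for EpiSCs and 0 to 1 for PGCLCs. Quantile normalization moved the median of all genes to -0.11 for unamplified and -0.10 for amplified EpiSCs against EpiLCs. What dim probe sets limit is stated beside them: where both groups lay under the filter level, no fold was given. The causes of these shifts were not tested, apart from the smaller number of arrays when 1 is left out.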

Other observations

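Among the 14 partners of laminin in basement membranes, 3 were called in the test of the germ cell step in culture against that in the embryo, all with the more positive difference in culture, where 0.513% of all genes were called in either direction. Tinagl1 read 470.4 and 389 in PGCLCs and 10.2 and 40.1 in day 2 EpiLCs, against 61.7 and 32.7 in PGCs and 222 and 159 in epiblast, a difference of the log2 differences of 6.46 ± 1.13, adjusted p = 0.0448. For Nid1, the link between laminin and collagen, the arrays read 331 and 338 in PGCLCs, 40.2 and 32.2 in EpiLCs, 122 and 44.1 in PGCs and 153 and 82.9 in epiblast, with 3.83 ± 0.68, adjusted p = 0.0498. Frem2 read 214 and 304 in PGCLCs, 4.55 and 3.16 in EpiLCs, 247 and 293 in PGCs and 20.8 and 26.3 in epiblast, with 2.34 ± 0.41, adjusted p = 0.0462. All 3 adjusted p lay close to the threshold of 0.05, and the EpiLC values of Tinagl1 lay on both sides of the filter level. The alternatives were reported gene by gene for members only, so whether these 3 calls hold under them was not examined. Visceral endoderm markers, which were high in the epiblast arrays as given above, belong to cells that make basement membrane, and their part in these differences was not tested. Icam2, an adhesion molecule of blood vessels and a ligand of leukocyte integrins, read 167 and 94.8 in amplified PGCLCs and 1.0 and 1.0 in EpiLCs (4.91 ± 0.78, adjusted p = 0.00274), with the endothelial markers given above beside it.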
